A study of Mus musculus with 6 samples.

Results

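ATP-dependent chromatin remodellers are enzymes that spend ATP to slide, eject or exchange nucleosomes. SWI/SNF (BAF) complexes carry the ATPase BRG1, encoded by Smarca4, or its paralog BRM, encoded by Smarca2, around a core of SMARCB1, SMARCC and SMARCD subunits, and ARID1 proteins define the canonical form. ISWI complexes carry SMARCA5, NuRD complexes carry CHD4, and CHD1 acts on promoters of active genes. BRG1 stored in the mouse egg is known for its part in activation of the embryonic genome: embryos made from eggs that lack it mostly arrest at the 2-cell stage. Transcripts of 10 such genes are described here, namely Smarca4, Smarca5, Smarcb1, Smarcc1, Smarcc2, Smarcd1, Arid1a, Arid1b, Chd1 and Chd4. They were taken by gene symbol, with 1 row for each symbol, from tables of 55549 rows.

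The libraries were made from polyadenylated RNA of mouse embryos at the early 2-cell stage. The EtP group was cultured from 4 h after fertilization in medium with 40 uM ethylparaben, a paraben preservative, and the series says that most of these embryos arrested at this stage. The control group is marked Con in the sample titles without further detail. Each group has 3 libraries, with strain, age at collection, embryos per library and separate cultures not given in the labels, so p-values measure only how far these libraries scatter, and that scatter may be technical.

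Libraries held 11173295 to 14737152 expected counts, with 19244 to 19613 genes at 1 count or more in EtP and 25861 to 26004 in control. TMM factors, which scale libraries so that most genes stay level, were 0.738 to 0.833 in EtP and 1.198 to 1.385 in control. Changes are therefore relative to other transcripts, and no value here gives RNA per embryo. Of 12 oocyte and early embryo markers, 9 were called higher in EtP and 0 lower with TMM, where 12.5% of all tested genes were higher. The summed level of these markers was 25510 to 28120 CPM (counts scaled by TMM library size) in EtP and 8218 to 11180 CPM in control. Scaled by library size alone, only Nlrp5, Gdf9, Bmp15 and Padi6 were called higher, and Khdc3 was called lower (edgeR adjusted p = 0.00362). With that scaling 3.79% of all tested genes were higher and 53.0% lower. Of 12 cumulus and granulosa markers, 3 (Amh, Ptx3 and Inhbb) were at 0 in all 6 libraries and 8 were at 0 in all EtP libraries. Of 4 tested, Tnfaip6 was called lower (edgeR adjusted p = 0.00285), and with library size alone so were Nr5a2 and Cyp19a1 (edgeR adjusted p = 0.0165 and 0.0173). The summed level of the 12, mostly from Nr5a2 and Cyp19a1, was 47.4 to 54.7 CPM in EtP and 45.2 to 72.9 CPM in control. Foxl2, Inha and Inhba were read only in a single control library each, at 0.39, 0.06 and 0.053 CPM. A sum carried by Nr5a2 and Cyp19a1 does not show whether cumulus or granulosa cells were present. The 8 sperm markers summed to 2.99 to 3.42 CPM in EtP and 5.97 to 12.9 CPM in control, mostly Prm2, which was called lower (edgeR adjusted p = 0.0111), with Tnp1 and Smcp at 0 in every library. The part of these marker differences in the results below was not tested. In bulk libraries, fewer cells of a kind and less RNA per cell cannot be told apart.

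Per transcript length, Chd4 was the most abundant of the 10 genes and Smarcd1 the least in both groups. Chd4, the NuRD motor, averaged 67.9 ± 13.7 TPM in EtP and 77.1 ± 21.8 TPM in control (SD, n = 3 each). TPM is the authors' length-scaled level, whose sum is the same in every library. The length of Chd4 averaged over isoforms was 1290 to 1486 bases in EtP and 1059 to 1528 bases in control. Its longest isoform has 6697 bases. By CPM, which does not divide by length, Arid1a lay above Chd4. Arid1a averaged 113 CPM in EtP and 115 CPM in control, and Chd4 82.7 and 55.2 CPM. Smarcb1, a core SWI/SNF subunit, came second with 22.0 ± 5.25 TPM in EtP and 36.5 ± 7.29 TPM in control. Smarca4 ranked eighth in both groups, at 2.41 ± 0.615 TPM in EtP and 4.26 ± 1.12 TPM in control. Between these, Arid1a, Arid1b, Smarca5 and Smarcc2 had mean levels of 7.53 to 14.7 TPM in EtP and 15.8 to 26.5 TPM in control. Smarcc1 and Chd1 lay at 2.55 and 1.79 TPM in EtP and at 3.89 and 5.27 TPM in control, on either side of Smarca4 in each group. In EtP the values of neighbours in this order overlapped except between Chd4 and Smarcb1, Arid1a and Arid1b, Smarcc2 and Smarcc1, and Chd1 and Smarcd1. In control they overlapped except between Chd4 and Smarcb1 and between Smarca5 and Chd1.

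The promoters of Smarca4, of Chd4 (highest by TPM) and of Smarcd1 (lowest by TPM) show the kind of start site these genes share. The windows run from 250 bases before to 50 after the RefSeq start on GRCm38.p6, all on the plus strand, and capitals mark GC boxes (GGGCGG on either strand). They lie at chr9:21615919-21616218 (Smarca4), chr6:125095731-125096030 (Chd4) and chr15:99702037-99702336 (Smarcd1).
Smarca4: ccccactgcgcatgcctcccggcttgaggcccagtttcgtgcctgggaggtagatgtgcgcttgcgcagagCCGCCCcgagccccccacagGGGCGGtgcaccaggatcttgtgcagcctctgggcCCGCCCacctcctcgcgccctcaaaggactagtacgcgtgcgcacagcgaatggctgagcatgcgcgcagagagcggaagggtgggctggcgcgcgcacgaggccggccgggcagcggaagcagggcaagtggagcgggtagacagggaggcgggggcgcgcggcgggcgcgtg
Chd4: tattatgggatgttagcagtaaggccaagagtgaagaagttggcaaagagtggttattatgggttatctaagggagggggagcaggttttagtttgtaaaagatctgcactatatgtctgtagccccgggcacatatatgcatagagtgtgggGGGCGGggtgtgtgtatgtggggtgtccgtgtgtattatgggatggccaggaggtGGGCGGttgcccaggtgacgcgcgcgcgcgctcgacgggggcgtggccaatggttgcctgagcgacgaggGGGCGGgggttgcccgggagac
Smarcd1: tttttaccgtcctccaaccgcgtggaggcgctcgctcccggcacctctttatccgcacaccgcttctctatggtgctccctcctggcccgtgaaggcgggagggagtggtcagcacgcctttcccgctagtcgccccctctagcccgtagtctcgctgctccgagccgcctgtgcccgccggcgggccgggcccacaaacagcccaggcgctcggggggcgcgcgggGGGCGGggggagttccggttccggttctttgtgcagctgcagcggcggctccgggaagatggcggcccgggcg
The table matched 9 of the 10 genes, with 11 windows because Arid1a and Chd4 have a pair of starts each. A GC box was found in 11 of 11 windows, against 57.1% of 12683 windows of tested genes and 35.7% of all 32851. None of the 11 held TATAAA on either strand, which 8.34% of windows of tested genes did. The 11 windows held 17 to 48 CpG dinucleotides, where windows of tested genes had a median of 19. The well-read gene Chd4 and the scarcely read gene Smarcd1 thus both start in GC-rich sequence, with 57.0% and 71.3% G or C in the windows shown.

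None of the 9 tested genes was called different between EtP and control, and Smarcd1 was not tested. Of the 9 that passed the count filter, 0 were higher and 0 lower at a Benjamini-Hochberg threshold of 0.05 in the edgeR quasi-likelihood test, where 30.6% of 14373 tested genes were called, 12.5% higher and 18.1% lower. At an unadjusted p below 0.05 the 9 also gave 0 calls, and so did DESeq2 and limma-voom after adjustment. Their median log2 fold change was -0.06, beside -0.19 over all tested genes. All 9 fall in the longest of 3 exon length classes described below. Over that class the median of EtP minus control in mean log2 CPM was 0.0. For none of the 9 did the groups separate without overlap, which 46.8% of tested genes did. A p that misses the threshold does not show equal levels, so the 95% interval of each change is given with it below.

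**Figure D1:**
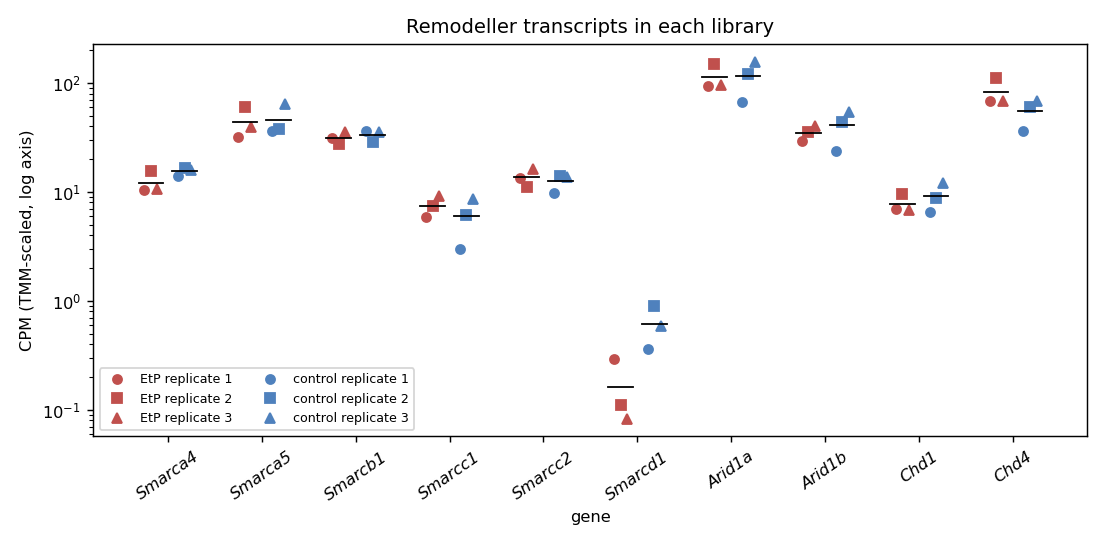
TMM-scaled CPM on a log axis for the 10 remodeller genes in each of the 6 libraries, EtP in red and control in blue, with bars at group means. The groups overlap for every gene except Smarcd1, which lies below 1 CPM in all libraries.

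Smarca4, the BRG1 gene on chromosome 9 (21616169 to 21704230, mm10), had 108, 140 and 129 expected counts in EtP and 232, 314 and 247 in control. After TMM scaling these were 10.4, 15.5 and 10.7 CPM in EtP and 13.9, 16.6 and 16.0 CPM in control. EtP replicate 2 lay above control replicate 1, so the groups overlapped. The log2 fold change was -0.35 ± 0.25 (SE; 95% interval -0.91 to 0.20; edgeR adjusted p = 0.315). It kept its sign when any single library was left out, between -0.51 and -0.21, without a call.

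Smarca5, the ISWI motor known as SNF2H (chromosome 8, 80698507 to 80739497), had 32.1, 60.9 and 39.3 CPM in EtP and 36.7, 37.8 and 63.6 CPM in control. A single library stood high in each group, replicate 2 in EtP and replicate 3 in control. The change was -0.06 ± 0.31 on the log2 scale (95% interval -0.74 to 0.62; edgeR adjusted p = 0.9), and its sign turned with RLE scaling.

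Chd4 (chromosome 6, 125095981 to 125130591) was at 67.9, 112 and 68.2 CPM in EtP and at 36.3, 60.7 and 68.4 CPM in control. It was the member with the largest increase in value, 0.58 ± 0.30 on the log2 scale, and the interval ran from -0.07 to 1.24 (edgeR adjusted p = 0.161). EtP replicates 1 and 3 lay just below the highest control library and replicate 2 above it, and leaving out single libraries gave 0.34 to 0.82. Chd1 (chromosome 17, 15704967 to 15772610), whose human protein binds methylated histone H3, had 6.95, 9.61 and 6.87 CPM in EtP and 6.54, 8.73 and 12.1 CPM in control. EtP values fell within the control range, with a log2 fold change of -0.22 ± 0.30 (95% interval -0.89 to 0.44; edgeR adjusted p = 0.606).

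The core subunits of SWI/SNF that were tested differed by less than the spread between libraries. Smarcb1, the gene of the SNF5 subunit (chromosome 10, 75896769 to 75921617), had 31.3, 27.5 and 35.9 CPM in EtP and 36.2, 28.9 and 35.2 CPM in control. Its change was the most tightly bounded of the 9, at -0.08 ± 0.22 on the log2 scale with an interval of -0.57 to 0.41 (edgeR adjusted p = 0.806). Smarcc1 and Smarcc2 encode the paired scaffold subunits of the core and lie on chromosomes 9 (110117708 to 110240178) and 10 (128459248 to 128490482). Smarcc1 had 5.89, 7.40 and 9.11 CPM in EtP and 3.00, 6.19 and 8.70 CPM in control, a log2 fold change of 0.33 ± 0.38 (95% interval -0.51 to 1.17; edgeR adjusted p = 0.545). Its control libraries spread almost 3 times over, so the interval is the widest of the 9, and 123 exonic bases are shared with Dhx30 on the opposite strand, which this unstranded protocol cannot separate. Smarcc2 had 13.5, 11.2 and 16.1 CPM in EtP and 9.78, 14.1 and 13.8 CPM in control, a log2 fold change of 0.12 ± 0.26 (95% interval -0.46 to 0.69; edgeR adjusted p = 0.767).

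Smarcd1, which encodes a SWI/SNF subunit that binds transcription factors (chromosome 15, 99702129 to 99713991), was barely read and did not pass the count filter. It had 3, 1 and 1 expected counts in EtP and 6, 16.9 and 9 in control, or 0.290, 0.110 and 0.0828 CPM in EtP and 0.360, 0.899 and 0.584 CPM in control. The groups did not overlap, on 5 counts in EtP against 31.9 in control. With no filter its log2 fold change was -1.85 ± 0.91 (edgeR adjusted p = 0.168). It was called lower only in the fit without control replicate 1 (log2 fold change -2.08 ± 0.73, edgeR adjusted p = 0.0418), in which 19.3% of tested genes were lower.

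The ARID1 genes encode alternative DNA-binding subunits of the canonical BAF complex, and lie on chromosomes 4 (Arid1a, 133679008 to 133756769) and 17 (Arid1b, 4994332 to 5347656). Arid1a had 93.6, 151 and 95.9 CPM in EtP and 66.3, 122 and 157 CPM in control, and Arid1b had 29.3, 35.8 and 40.2 CPM in EtP and 23.9, 44.1 and 54.6 CPM in control. For both genes the EtP libraries lay inside the control range. Arid1a changed by -0.02 ± 0.32 on the log2 scale (95% interval -0.73 to 0.69; edgeR adjusted p = 0.971). Arid1b changed by -0.22 ± 0.30 (95% interval -0.88 to 0.45; edgeR adjusted p = 0.615).

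How libraries are scaled decides whether these genes appear level or lower. Scaling by library size alone shifted the all-gene median by -0.73 on the log2 scale, and 4 of the 9 were called lower, where 53.0% of all tested genes were lower, 3.79% higher and 56.8% called either way. These were Smarca4, Arid1b, Chd1 and Smarcb1, with log2 fold changes of -1.09, -0.97, -0.98 and -0.81 (edgeR adjusted p = 0.00642, 0.0315, 0.0266 and 0.0174). The members' median was then -0.81, and that of all genes -0.92. The members' median minus that of all genes was 0.13 with TMM, -0.16 at 10 CPM or more in 3 libraries and -0.06 on TPM. With no filter on low counts, over 32958 genes, it was 0.77. Over the fits without a single library it lay between -0.02 (without control replicate 1) and 0.33 (without control replicate 3). On log2(TPM + 1) with limma-trend, 4 of the 9 were lower, where 42.8% of 13355 genes were lower and 48.0% were called either way. These 4 were Arid1b, Chd1, Smarcb1 and Smarcc2. TPM carries no TMM scaling and divides by an isoform-weighted length, which among these 4 genes stood apart between groups for Smarcc2 and overlapped for Arid1b, Chd1 and Smarcb1.

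**Figure D2:**
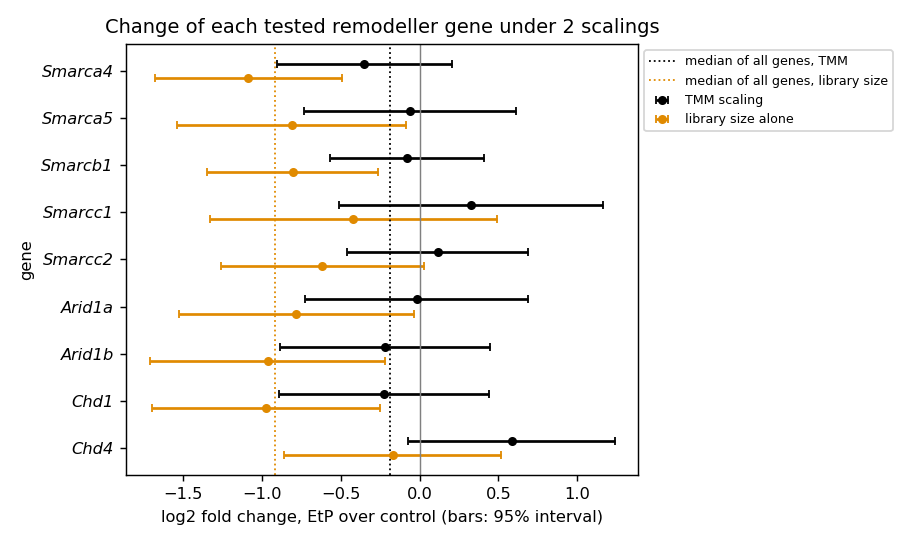
Log2 fold change of the 9 tested remodeller genes, EtP over control, with 95% intervals, under TMM scaling (black) and library size alone (orange), and dotted lines at the medians of all tested genes. With TMM every interval includes 0, and with library size alone all 9 points lie below 0, where the median of all tested genes is -0.92.

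Within each group several members had the same lowest or highest library. How often this holds over all tested genes was not tested. In EtP, replicate 1 was the lowest library for 6 of 9 members and replicate 2 the highest for 5. In control, replicate 1 was the lowest for 8 of 9 members and replicate 3 the highest for 6. Control replicate 1 deviated from the mean of the other control libraries by a median of -0.61 on the log2 scale over the 9 members, and control replicate 3 by 0.64. Tested genes were split into 3 classes of nearly equal size by the merged length of all annotated exons, retained introns included. All 9 belong to the longest class (5418 to 123179 bases). This is not the length of the isoforms read: Smarcb1 has 7930 such bases but averaged 1617 to 1649 bases over isoforms. Over that class, control replicate 1 deviated by a median of -0.28 and control replicate 3 by 0.20, and over the shortest class by 0.38 and -0.28. The EtP libraries showed smaller length trends, with medians of -0.03, -0.02 and 0.07 in the longest class, while EtP replicate 2 deviated by 0.45 over the members. Between groups, the median of EtP minus control in mean log2 CPM was 0.0 over the longest class, -0.14 over the middle and -0.39 over the shortest. The part of exon or transcript length in the members' spread or in their changes was not tested. Without control replicate 1 the 9 tested members gave 0 calls, and likewise without control replicate 3.

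**Figure D3:**
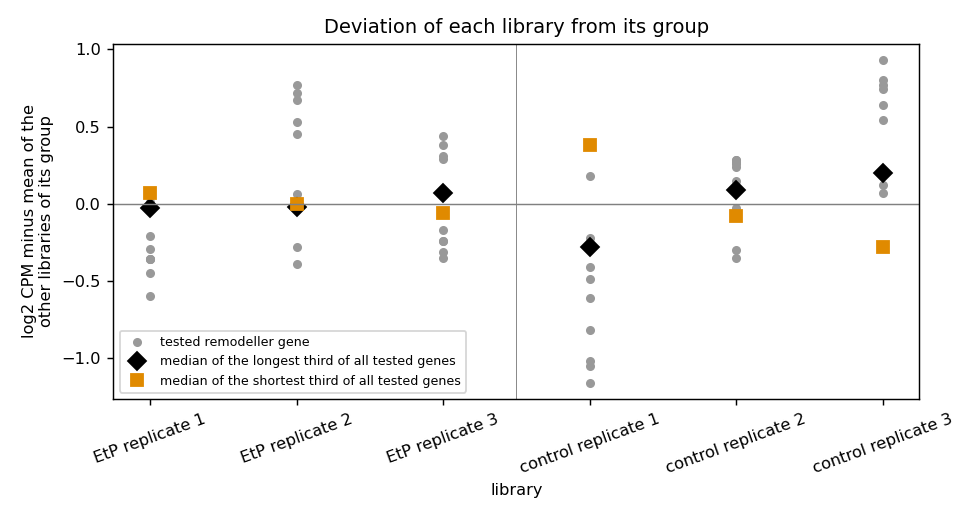
Log2 CPM of each tested remodeller gene (grey) in each library minus the mean of the other libraries of its group, with medians of the longest (black) and shortest (orange) of 3 merged exon length classes of all tested genes. In control replicate 1, 8 of 9 remodeller genes and the median of the longest class lie below 0, and that of the shortest class lies at 0.38.

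The tables also give each gene's transcript length, averaged over isoforms by their estimated share. This length stood apart between groups for 4 of the 10 genes. For Smarca4 it was 5670, 5139 and 5405 bases in EtP and 6329, 6279 and 6022 bases in control. In EtP replicate 3 it equals the annotated length of the single isoform Smarca4-204 (5405 bases), whereas the longest isoforms, at 6354 and 6376 bases, lie close to the control values. Smarca5 had 6113 bases in all 3 EtP libraries, the length of its only protein-coding isoform, and 5760, 5144 and 4862 bases in control, where some counts went to shorter isoforms annotated as retained introns. Arid1a ranged from 8054 to 8092 bases in EtP and from 7658 to 7926 bases in control. Smarcc2 ranged from 1815 to 2419 bases in EtP and from 1081 to 1768 bases in control. Its TPM was 5.75, 6.54 and 10.3 in EtP and 13.9, 20.9 and 16.3 in control, without overlap, whereas its TMM-scaled CPM overlapped; with library size alone, which uses no length, its log2 fold change was -0.62. Among 11472 tested genes with several transcripts, EtP was longer without overlap for 11.0% and shorter for 10.3%, with 1261 and 1179 genes. Isoform shares were estimated from few counts in some genes, 108 to 314 for Smarca4, and no test was made.

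**Figure D4:**
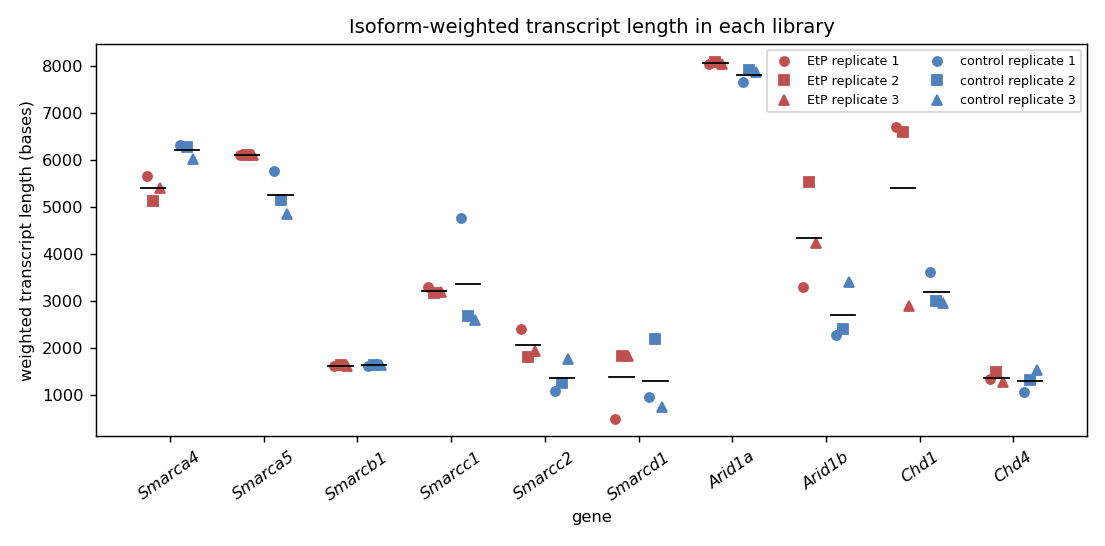
Isoform-weighted transcript length in bases for the 10 remodeller genes in each library, EtP in red and control in blue, with bars at group means. Smarca4 is shorter in the EtP libraries, and Smarca5, Smarcc2 and Arid1a are longer, without overlap between groups.

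Paralogs that take the same place in a complex were compared as a TPM ratio within each library, which no scaling of libraries can move. The BRG1 gene was far scarcer than the BRM gene in both groups. Smarca4 stood at 0.0109, 0.0150 and 0.0152 times Smarca2 in EtP and at 0.0110, 0.0207 and 0.0305 times in control. Smarca2 had a weighted length of 800 to 958 bases in EtP and 1032 to 1208 bases in control, where the longest annotated isoform has 5921. This length weights isoforms by their estimated share, so it does not show which isoforms took most counts. By expected counts alone Smarca4 was 0.0891 to 0.111 times Smarca2 in EtP and 0.0725 to 0.168 times in control. The groups overlapped by both measures (TPM, exact two-sided permutation p = 0.3, adjusted p = 0.5 over 5 pairs).

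Of the other 4 pairs tested, the Chd4 to Chd3 ratio kept its groups apart by TPM and by expected counts. It was 773, 239 and 213 in EtP and 135, 126 and 189 in control by TPM, with 4 to 13 Chd3 counts in EtP and 18 to 28 in control. Chd3 itself lay at 0.07 to 0.34 TPM in EtP and 0.39 to 0.67 TPM in control. The log2 difference was 1.21, and it was 0.14 with a pseudocount of 1 TPM (exact permutation p = 0.7) and 0.62 without EtP replicate 1. The exact permutation p of 0.1 for the ratio without a pseudocount is the smallest that 3 against 3 libraries allow (adjusted p = 0.25). Arid1a to Arid1b gave 1.28, 2.86 and 1.24 in EtP and 0.798, 0.809 and 1.21 in control, also without overlap (exact permutation p = 0.1, adjusted p = 0.25). Its log2 difference was 0.84, and 0.45 without EtP replicate 2. By expected counts, which do not involve the length of Arid1b isoforms, the groups overlapped (exact permutation p = 0.7). The ratios Smarcc1 to Smarcc2 and Smarcd1 to Smarcd2 overlapped between groups (exact permutation p = 0.4 and 0.6, adjusted p = 0.5 and 0.6). Smarca1, the ISWI paralog of Smarca5, had 0 to 5 counts in each library, so no ratio was tested.

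A further 94 genes of remodelling complexes give the setting of the 10. Of 87 tested, 17 were higher and 3 lower in EtP, 23.0% called beside 30.6% of all genes, with a median log2 fold change of 0.20. Single libraries moved these counts: leaving out EtP replicate 1, 2 or 3 gave 9, 10 and 13 higher and 2, 2 and 1 lower, leaving out control replicate 2 gave 10 higher and 1 lower, and leaving out control replicate 1 gave 24 higher and 7 lower. Leaving out single libraries, the higher calls ranged over 1 to 3 in SWI/SNF partners, 2 to 5 in ISWI, 1 to 2 in NuRD, 3 to 9 in INO80, SRCAP and TIP60, 2 to 4 in other SNF2 genes and 0 to 2 in other CHD genes, and the lower calls over 0 to 4 in SWI/SNF partners, 1 to 3 in NuRD and 0 to 1 in INO80, SRCAP and TIP60. With library size alone they turned to 4 higher and 32 lower, where 3.79% of all tested genes were higher and 53.0% lower. The 4 were among the 17, namely Nfrkb, Rad54b, Rbbp7 and Rsf1. By list, the share called with TMM was 16.7% in SWI/SNF partners, 33.3% in ISWI partners and 35.7% in NuRD subunits. It was 25.9% in INO80, SRCAP and TIP60, 15.4% in other SNF2 genes and 0% in other CHD genes. Over all tested genes edgeR called 12.5% higher and 18.1% lower. DESeq2 called 32.4% of all tested genes either way and limma-voom 29.6%. Counts at an unadjusted p below 0.05 are given below without a share over all genes, which was not computed.

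Among 18 tested partners in SWI/SNF complexes, 3 were higher and 0 lower by edgeR (3 and 1 at an unadjusted p below 0.05, 3 and 1 by DESeq2, 3 and 0 by limma-voom). The share called by edgeR was 16.7%, beside 30.6% of all tested genes. Ss18 averaged 94.6 ± 7.54 CPM in EtP and 47.8 ± 11.0 CPM in control, a log2 fold change of 0.98 ± 0.23 (edgeR adjusted p = 0.0099). Brd9, the bromodomain subunit of the non-canonical complex, rose by 0.82 ± 0.22 and Bcl7b by 0.79 ± 0.23. Brd9 lost its call without EtP replicate 1, EtP replicate 2 or control replicate 2 (edgeR adjusted p = 0.0699, 0.0694 and 0.0655), and Bcl7b without EtP replicate 1, EtP replicate 3 or control replicate 2 (0.0745, 0.0861 and 0.0513). Smarcd2, the paralog of Smarcd1, had 6.95, 13.2 and 12.8 CPM in EtP and 10.9, 24.8 and 35.1 CPM in control and missed the threshold (log2 fold change -1.10 ± 0.41, edgeR adjusted p = 0.0626). Its groups overlapped, and its adjusted p ranged from 0.0028 without control replicate 1 to 0.235 without EtP replicate 1. DESeq2 called it lower (adjusted p = 0.0438) and limma-voom did not (adjusted p = 0.117).

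Of 9 tested ISWI partners, 3 were higher and 0 lower by edgeR (6 and 0 at an unadjusted p below 0.05, 6 and 0 by DESeq2, 5 and 0 by limma-voom), with a list median of 0.67. The share called by edgeR was 33.3%, beside 30.6% of all tested genes. With library size alone 1 was higher and 2 were lower, where 3.79% of all tested genes were higher and 53.0% lower. Rsf1, which pairs with SMARCA5 in the RSF complex, averaged 26.1 ± 7.30 CPM in EtP and 9.43 ± 0.324 CPM in control, a log2 fold change of 1.47 ± 0.26 (edgeR adjusted p = 0.00211). Pole3, a histone-fold subunit of CHRAC and of DNA polymerase epsilon, rose to 137 ± 26.0 CPM in EtP, against 61.2 ± 6.98 CPM in control (edgeR adjusted p = 0.00321). Bptf, the large subunit of NURF, rose by 0.78 ± 0.23, and its call was lost without any 1 of the EtP libraries or without control replicate 2 (edgeR adjusted p = 0.0541, 0.0947, 0.0633 and 0.0552). Cecr2 was at 0.67 ± 0.24 and not called (edgeR adjusted p = 0.0529). It was called higher with RLE scaling (0.767, edgeR adjusted p = 0.0288), with no filter, with the replicate block (edgeR adjusted p = 0.0176), by DESeq2 (adjusted p = 0.0113), by limma-voom (adjusted p = 0.0494) and without any 1 of the control libraries (edgeR adjusted p = 0.0222, 0.0459 and 0.0414). It was not called without any 1 of the EtP libraries (edgeR adjusted p = 0.125, 0.0782 and 0.145). The motor itself, Smarca5, was at -0.06.

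Of 14 tested NuRD subunits, 2 were higher and 3 lower, 35.7% called beside 30.6% of all tested genes. Over all tested genes 12.5% were higher and 18.1% lower. With library size alone 1 NuRD subunit was higher and 8 were lower, where 53.0% of all tested genes were lower. Rbbp7, a histone-binding subunit shared with other complexes, averaged 4397 ± 443 CPM in EtP and 1725 ± 364 CPM in control, a log2 fold change of 1.35 ± 0.22 (edgeR adjusted p = 0.00148). Its paralog Rbbp4 was at 29.1 ± 2.89 CPM in EtP and 36.4 ± 1.22 CPM in control (log2 fold change -0.32, edgeR adjusted p = 0.263). The deacetylase gene Hdac1 rose by 0.98 ± 0.29, and its call was lost without EtP replicate 1, EtP replicate 2 or control replicate 2 (edgeR adjusted p = 0.0851, 0.0949 and 0.0691). The zinc-finger subunit Gatad2b was at 0.39 ± 0.21 (edgeR adjusted p = 0.187). The 3 lower genes, named after their values were seen, were Mta2, Mbd2 and Cdk2ap1, each below 6 CPM in every library, with log2 fold changes of -2.73, -1.10 and -2.54.

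The INO80, SRCAP and TIP60 complexes gave 7 higher and 0 lower of 27 by edgeR (10 and 2 at an unadjusted p below 0.05, 10 and 0 by DESeq2, 7 and 0 by limma-voom). The share called by edgeR was 25.9%, beside 30.6% of all tested genes. Nfrkb, a subunit of INO80, showed the largest increase of the 87 tested genes. It had 344, 301 and 371 CPM in EtP and 48.3, 58.4 and 49.9 CPM in control. Its log2 fold change was 2.70 ± 0.21 (edgeR adjusted p = 1.35e-05), and with library size alone 1.97. Actr8 rose by 1.11 ± 0.27, Brd8 by 0.93 ± 0.22 and Tfpt by 0.83 ± 0.24. The call of Tfpt was lost without any 1 of the EtP libraries or without control replicate 2 (edgeR adjusted p = 0.0582, 0.0725, 0.0586 and 0.0776).

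The 13 other SNF2-family genes, ATPases outside these complexes, gave 2 higher and 0 lower by edgeR, 15.4% called beside 30.6% of all tested genes. They gave 3 and 0 at an unadjusted p below 0.05, and 2 and 0 by DESeq2 and by limma-voom. Rad54b, a motor of homologous recombination, had 40.2, 36.8 and 40.0 CPM in EtP and 10.8, 9.94 and 8.57 CPM in control, a log2 fold change of 2.00 ± 0.22 (edgeR adjusted p = 0.000134). Atrx, which places histone variant H3.3 in heterochromatin, averaged 357 ± 51.4 CPM in EtP and 185 ± 26.6 CPM in control (log2 fold change 0.95 ± 0.22, edgeR adjusted p = 0.00776). Ttf2 and Hells were at 0.66 and 0.46 and not called (edgeR adjusted p = 0.102 and 0.131). The 6 other CHD ATPases gave 0 calls by edgeR (1 higher at an unadjusted p below 0.05, 1 higher by DESeq2 and 0 by limma-voom). Chd9, Chd1l, Chd8 and Chd2 were at 0.45, 0.71, 0.63 and 0.36 (edgeR adjusted p = 0.105, 0.123, 0.152 and 0.277), and each was below 0 with library size alone.

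**Figure D5:**
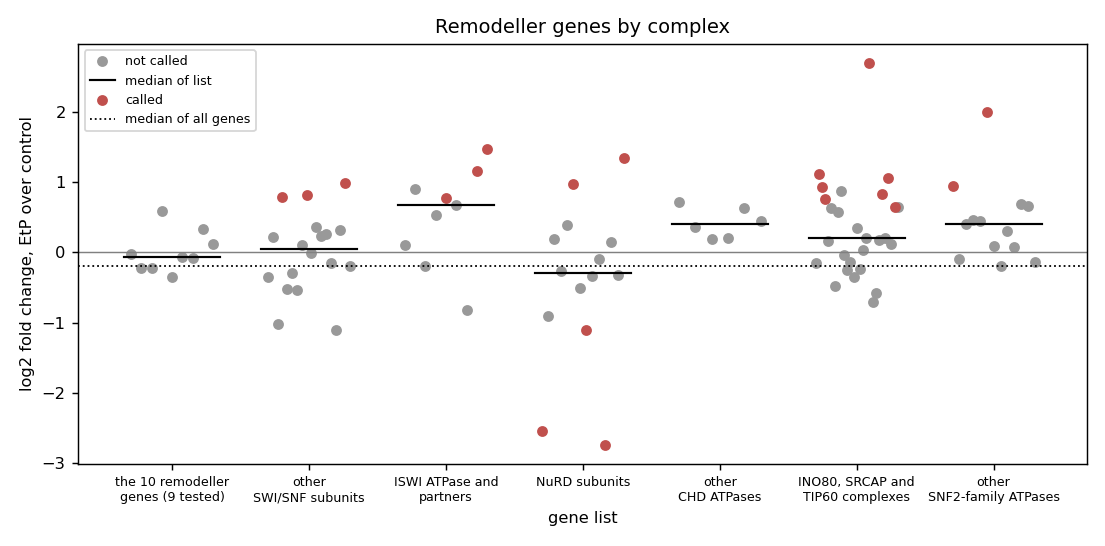
Log2 fold change, EtP over control, of each tested gene in the 10-gene set and in 6 lists of other remodeller genes, with called genes in red, list medians as bars and the median of all tested genes dotted. The 9 tested genes of the set lie between -0.35 and 0.58 with no call, and Nfrkb and Rad54b stand highest at 2.70 and 2.00.

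Among the genes most like Smarca4 over the 6 libraries were Rps2-ps10, Sh3glb1, Ugcg and Rybp. Likeness was the root mean square distance of log2 CPM values centred on each gene's own mean, and it was 0.07 to 0.09 for these 4 of 5976 candidates. Ugcg had 62.1, 89.4 and 64.4 CPM in EtP and 76.9, 107 and 103 CPM in control. Like Smarca4, it was highest among EtP libraries in replicate 2 and lowest among control libraries in replicate 1, which follows from how it was chosen.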

How the data were processed

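Smart-seq2 libraries (oligo-dT priming, PCR, paired reads) were made from polyadenylated RNA, per the labels' protocols; this method does not mark strand. The submitters' processing notes name cutadapt 1.16, STAR and mm10, and no counting program. The deposited expected counts are the authors' estimates of fragments per gene, of which 10.6% to 16.0% were not whole (tolerance 0.005), and were rounded. The authors' deposited TPM divides by transcript length and has a fixed library sum. The deposited gene length, per the file headers, is in bases; it differs between libraries and was read as an isoform-weighted mean.

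EtP was compared with control by edgeR 4.0.16 (R 4.3.3) across all genes: filterByExpr, TMM, robust quasi-likelihood fit, group as the only term, Benjamini-Hochberg threshold 0.05. Each SE was the absolute log2 change over root F, and 95% intervals use the fit's degrees of freedom. CPM uses TMM-scaled library sizes. Paralog ratios had exact permutation tests (scipy 1.17.1). The edgeR step was tested on simulated data. Alternatives were other scalings and filters, DESeq2 1.42.0, limma-voom and limma-trend (limma 3.58.1), a replicate block and each library left out; count ratios of paralogs were added after seeing the data.

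The members and lists were chosen with earlier results of these data known. Named genes are the members, their paralogs, up to 4 genes per list, ranked by p among those averaging 5 CPM or more, and the 5 nearest to Smarca4 with at least 10 CPM (log2 of CPM + 0.5, predicted loci left out), of which 1 is not reported here. Positions and isoforms come from GENCODE M21 on the same assembly, and promoters from RefSeq. Figures used matplotlib 3.10.9.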

Additional observations from a re-analysis of the deposited data

How the results depend on the processing

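Those of the 10 remodeller genes that were tested gave 0 higher in every setting. They gave 0 lower except 4 with library size alone, 4 on TPM and 0 to 1 over the fits without a single library. Over all genes, higher and lower calls numbered 545 and 7617 with library size alone, 691 and 5715 on TPM, 978 and 1454 at 10 CPM or more in 3 libraries, and 918 and 1403 at an adjusted p of 0.01, and ranged over 1096 to 2637 and 1659 to 2887 without single libraries. RLE moved the median of all genes by 0.10. Other remodeller genes gave 4 higher and 32 lower with library size alone, 6 and 18 on TPM, 9 and 7 at 10 CPM, and 8 and 1 at 0.01; lower ones were 6 with upper-quartile scaling, and without single libraries the ranges were 9 to 24 and 1 to 7. With the replicate block they were 24 and 5. The labels name no batch or day shared by libraries of equal number. Same-numbered deviations correlated at 0.127, 0.003 and 0.273. EtP replicates 1 and 3 correlated best with the control library of the same number, and EtP replicate 2 with control replicate 1 (0.111). Whether the libraries are paired was not tested. Over all genes the block gave 2295 higher and 3022 lower, against 1798 and 2601 without it. The block changed no call of a member, and the edgeR adjusted p of Chd4 was 0.0545 with it and 0.161 without.

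Signs turned in several settings, also for genes well above 0 with TMM, such as Chd1l (0.71), Cecr2 (0.67), Ttf2 (0.66), Chd8 (0.63) and Chd4 (0.58). With RLE and with DESeq2 the log2 fold changes were 0.039 for Smarca5, 0.007 for Smarcb1 and 0.086 for Arid1a, which was also at 0.023 with no filter, 0.03 with limma-voom and 0.035 with the replicate block (main -0.02). With library size alone Smarcc1, Smarcc2, Chd4, Cecr2, Gatad2b, Chd9, Chd1l, Chd8, Chd2, Ttf2 and Hells were at -0.42, -0.62, -0.17, -0.069, -0.35, -0.27, -0.033, -0.13, -0.36, -0.055 and -0.27. On TPM Smarcc1, Smarcc2, Chd4, Gatad2b, Chd9, Chd8, Chd2 and Hells were at -0.26, -1.10, -0.16, -0.025, -0.054, -0.41, -0.10 and -0.10, and Smarcc2, called lower on TPM (limma adjusted p = 0.0113), was at -0.14 at 10 CPM. Without single libraries Smarca5 ranged from -0.32 to 0.29, Smarcb1 from -0.15 to 0.079, Arid1a from -0.24 to 0.32, Arid1b from -0.39 to 0.10 and Chd1 from -0.35 to 0.074. With a pseudocount of 1 TPM the log2 difference of the Smarcd1 to Smarcd2 ratio was 0.87, where without one it was -1.01. The causes were not tested. Smarcc1 and Chd4 had 95% intervals reaching up to 1.17 and 1.24, and Smarca4, Chd1 and Arid1b down to -0.91, -0.89 and -0.88. Changes of those sizes were not excluded.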
